A study of Mus musculus with 12 samples.

Results

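Large insertions (LIs) are insertions of 20 bp or more left at a Cas9 cut. The 161 LIs described here are molecules listed with more bases inserted than deleted and an insertion of at least 20 bp, out of 2578 molecules listed with any indel. They came from individual DNA molecule sequencing (IDM-seq) of mouse skeletal muscle stem cells (MuSCs), in which every starting DNA molecule carries a unique molecular identifier (UMI) and is read by Nanopore long reads. The deposited totals count 206 LIs. The inserted sequences of the other 45 were not analysed here, and these 45 need not resemble the rest. Short insertions (181) and large deletions (LDs, 50 bp or more, 931) matched the deposited totals in all 8 edited samples, so only LIs were affected. All edited samples came from Pax7Cas9 mice, in which Pax7Cre (active in MuSCs and their precursors) switches on Cas9 and EGFP from Rosa26. AAV9 carrying an sgRNA was injected into muscle at postnatal day 10, and MuSCs were isolated 4 weeks later. Cells still dividing as myoblasts at the injection could pass an edit on to several MuSCs, and the study chose these sites for their moderate to high frequency of large indels. An amplicon assay holds no marker expression, so the identity of the isolated cells was not checked. The edited samples were replicates 1 and 2 at each of S1, S7, S18 and S28, and 4 unedited libraries were not analysed here. The sample titles number the replicates only, so p-values measure the spread between these samples.

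A Cas9 break is usually sealed by end joining, which can trap any DNA end that lies nearby. Adeno-associated virus (AAV) genomes are linear DNA ending in inverted terminal repeats, and are known to be captured at such breaks. Fragments of the host genome can be captured as well. The captured DNA and the place it came from are therefore the main features of an LI.

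The 4 targets are shown because every distance below is counted from their cut and because the same guides turned up again inside LIs. S1 lies in coding sequence of Adk, the gene of adenosine kinase, and S7 in coding sequence of Ctcf, a chromatin insulator protein. S18 lies in coding sequence of Runx1, a transcription factor, and S28 in an intron of Pax7, the transcription factor that marks MuSCs. Each sequence was read from GRCm38 (mm10), 5′ to 3′ on the strand of the guide, with the PAM in capitals.
S1 (chr14:21092395-21092417, minus strand): acagcagagatgtcaagaagAGG
S7 (chr8:105663832-105663854, plus strand): acttaccagagacgccgggaAGG
S18 (chr16:92825594-92825616, plus strand): atgaagcactgtggatatgaAGG
S28 (chr4:139771793-139771815, minus strand): tctcaccatgactggggtcaAGG

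The listed LIs ranged from 24 to 1856 bp, and most of the long ones among them were at S1, which held 81 of the 161. The lengths of the 45 LIs not analysed here are unknown and may lie outside this range. Of these 45, 28 were at S1, 1 at S7, 5 at S18 and 11 at S28. S1 replicate 1 lacked 18 of its 50 LIs and S1 replicate 2 lacked 10 of 59. The sequences of 32 and 49 LIs were listed in S1 replicates 1 and 2, of 2 and 6 in S7, of 12 and 13 in S18, and of 21 and 26 in S28. In S1 replicate 1 the shortest LI was 28 bp, the median 214 bp and the longest 1247 bp. In S1 replicate 2 they were 36, 167 and 1318 bp. At S18 the values were 43, 128 and 371 bp in replicate 1 and 44, 181 and 1752 bp in replicate 2. The median of S1 replicate 1 was the highest of the 8, and that of S1 replicate 2 was below only this and S18 replicate 2. At S28 they were 24, 69 and 1856 bp in replicate 1 and 31, 109 and 1013 bp in replicate 2. At S7 the 2 LIs of replicate 1 were 56 and 134 bp, and the 6 of replicate 2 ran from 35 to 89 bp with a median of 40 bp. LIs of 500 bp or more numbered 28, of which 21 were at S1, 4 at S28, 3 at S18 and 0 at S7. They were 31.2% and 22.4% of the listed LIs in S1 replicates 1 and 2. The shares were 0% and 23.1% in S18 replicates 1 and 2, and 9.52% and 7.69% in S28 replicates 1 and 2. Since length chose the members, no test was made on length between sites. No insertion lay close to the 20-bp minimum. The longest insertion below it was 15 bp, and the shortest LI was 24 bp.

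**Figure D1:**
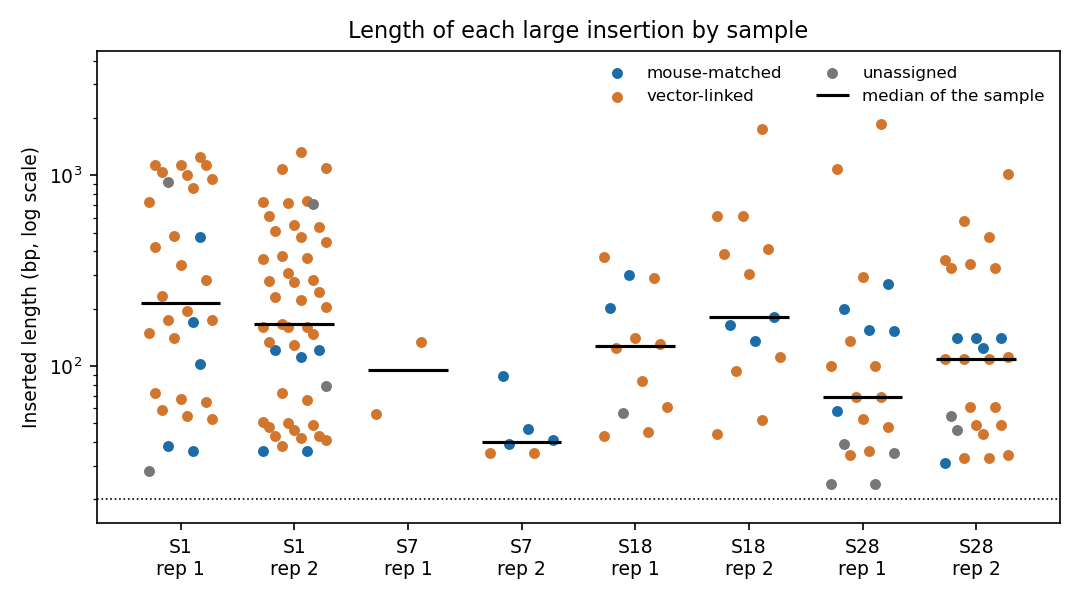
Inserted length (bp, log axis) of each of the 161 LIs by sample, coloured by origin, with a black bar at the median of each sample and a dotted line at 20 bp. LIs of 1000 bp or more (13) occur at S1, S18 and S28, and all 8 LIs of S7 are 134 bp or shorter.

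None of the 161 LIs was listed with a deleted base, and no LI molecule had a deletion on another line. A count of 0 of 161 allows a share of up to 1.86%. In the whole list, 1 insertion line named deleted bases as well, and that insertion was shorter than 20 bp. The planned comparisons of deleted bases, between sites and between origins, therefore had no variation to test. Bases lost beside an insertion that the caller did not name would not appear in the list.

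Most LIs carried DNA without a match in the mouse genome that was linked by overlap to LIs of other sites. An LI was called mouse-matched (the study's term is Endo-LI) when at least 50% of its inserted bases aligned to GRCm38 in stretches of at least 20 bases at 90% identity or more. An LI without such a match was called vector-linked when it overlapped, directly or through other LIs, an LI that held the guide of its site joined to the same non-genomic sequence. No vector sequence was given, so the vector itself was not aligned. An overlap needed at least 30 bases, so the 3 LIs shorter than that could not be called vector-linked. By these rules 121 of 161 LIs were vector-linked (75.2%, 95% Wilson interval 67.9% to 81.2%). Another 29 were mouse-matched (18%, 12.8% to 24.7%) and 11 were unassigned (6.83%, 3.86% to 11.8%). The intervals cover counting error only and take all molecules as independent. They leave out the spread between samples, where the vector-linked share ran from 33.3% (S7 replicate 2) to 100% (S7 replicate 1). Some inserts also stood in more than 1 molecule, so the intervals are too narrow. Over all 206 LIs the mouse-matched share lies between 14.1% and 35.9%, whatever the remaining 45 held. The vector-linked share lies between 58.7% and 80.6% if the calls of the 161 stay as they are. It could be higher, since overlaps with the 45 might link LIs that are now unassigned. Vector-linked LIs made up 87.1% of all inserted bases.

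**Figure D2:**
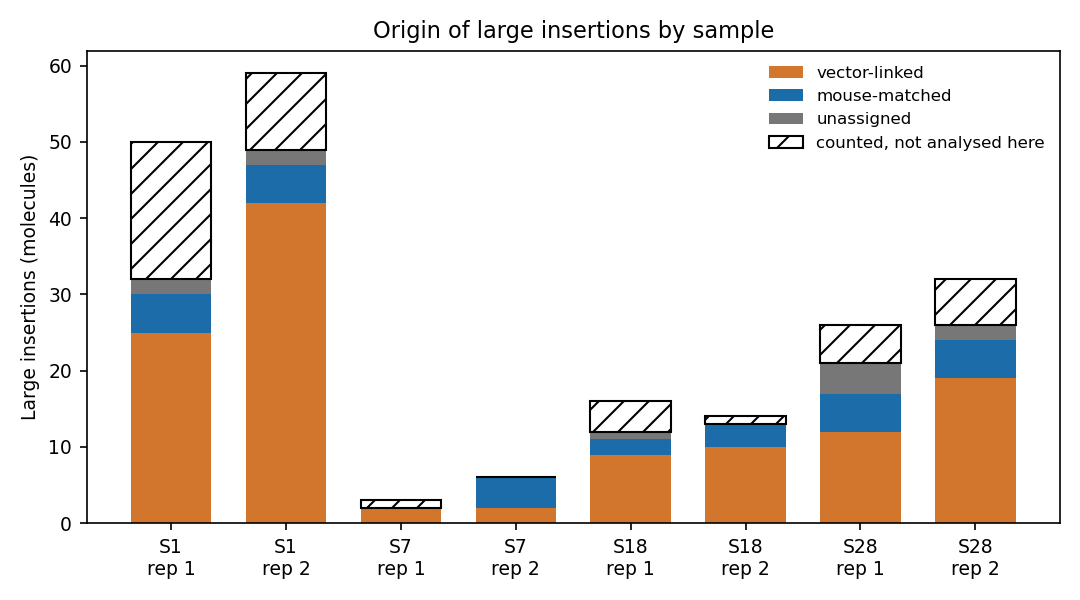
Number of LI molecules by sample, stacked by origin, with hatching for LIs counted in the deposited totals whose sequence was not analysed here. Vector-linked LIs are the largest class in every sample except S7 replicate 2, where 4 of 6 LIs were mouse-matched.

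None of the 28 listed LIs of 500 bp or more was mouse-matched. Of these, 26 were vector-linked and 2 (924 bp and 709 bp, both at S1) were unassigned. A 613-bp vector-linked LI of S18 replicate 2 aligned to the mouse genome over 89 of its bases, and the other 27 over 0. The longest mouse-matched LI had 476 bp. The median length was 124 bp for mouse-matched and 160 bp for vector-linked LIs over all samples. Within samples the direction varied. The median of mouse-matched LIs minus that of the other LIs was -181 bp and -115 bp in S1 replicates 1 and 2 and 9 bp in S7 replicate 2. It was 146.5 bp and -181 bp in S18 replicates 1 and 2, and 94 bp and 31 bp in S28 replicates 1 and 2. The difference was negative in 3 and positive in 4 of the 7 samples that held both classes. Its mean was -28.1 bp ± 132 (SD, n = 7), smaller than the spread between samples. It was -2.58 bp without S1 replicate 1 or without S18 replicate 2, -57.2 bp without S18 replicate 1 and -70.5 bp over LIs of 50 bp or more. Since length chose the members and the match rule itself depends on length, these are descriptions with no test.

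The share of mouse-matched LIs was 12.9% ± 3.83 (SD, n = 2) at S1, 19.9% ± 4.53 at S18 and 21.5% ± 3.24 at S28. At S7 the replicates were at 0% (0 of 2 LIs) and 66.7% (4 of 6 LIs). S18 and S28 differed by less than their spread, and S7 could not be placed. The sites accounted for 16% of the variance, which missed the threshold over the 105 ways of forming 4 pairs (exact permutation, p = 0.895, 1 when adjusted). The value rested on S7. Without S7 replicate 1, the sites accounted for 97.9% (exact permutation, p = 0.0381), and without S7 replicate 2 for 88.8% (p = 0.0381, also exact). In both cases the remaining S7 value, from 6 molecules in the first case and 2 in the second, was the extreme one, and the spread within sites came from S1, S18 and S28 alone, with the lone S7 sample assumed to vary like them.

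The guide itself was part of 20 vector-linked LIs. In each, the 20 bases of the target stood next to a sequence that is not found at the target in the genome, identical over its first 14 bases at S1, S18 and S28. The junction was seen in 12 LIs at S1, 3 at S18 and 5 at S28, and in 0 of 8 LIs at S7. It ran in the direction of the reference in 8 LIs and in the opposite direction in 12. No LI held the target of another site (0 of 161). Of 22 LIs with at least 20 bases before the first copy of the common sequence, 20 had the guide of their own site there. The other 2 held there the same 20 bases that stand before second copies. A second copy followed in 18 LIs, 82 bases after the first in the median and within 2 bases of that in all 18. The study's methods and labels name a virus with an sgRNA for this assay while a legend names dual sgRNAs. These LIs showed a single guide per site next to the common sequence, which does not show what other virus may have been given.

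Vector-linked LIs were laid out along a stretch of 382 bases before and 1828 bases after the end of the guide, built by joining overlapping LIs that held the guide to the longest LI. Of the 121 vector-linked LIs, 106 aligned to it, 87 of them over at least 90% of their bases, 96 in 1 segment and 10 in 2 or more. The unassigned 28-bp LI of S1 replicate 1, too short for the overlap rule, also aligned to the layout, over all of its 28 bases. Coverage by vector-linked LIs was highest near, but not at, the upstream end of the layout. An average of 14.8 LIs covered the outermost bases, from 382 to 350 before the end of the guide. An average of 55.1 LIs covered the bases 350 to 300 before the end of the guide, with at most 63 LIs on any base. It was 31.2 LIs in the next 50 bases, 21.7 LIs just after the guide, 14.2 LIs from 400 to 450 bases after it, and 6 LIs in the last 28 bases of the layout. The decline was not steady. The mean was 8.82 LIs from 850 to 900 bases and 12.7 LIs from 950 to 1000 bases after the guide. The 45 LIs not analysed here could change this profile. The layout need not hold the whole vector. Whether LIs from the repeat at the other end of the vector also aligned near this upstream end was not tested.

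**Figure D3:**
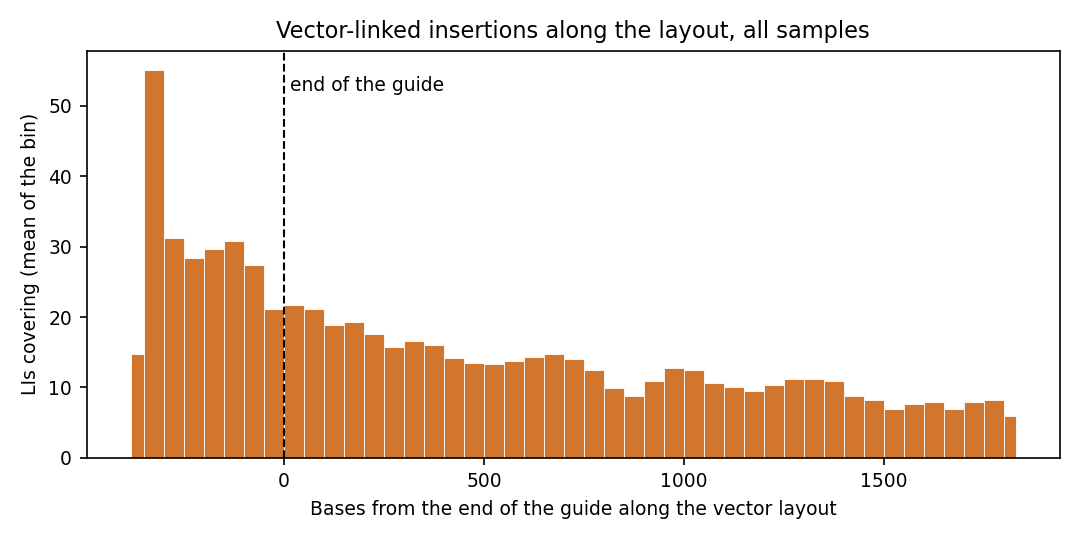
Mean number of vector-linked LIs (all samples) covering each bin, mostly of 50 bases, plotted by distance in bases from the end of the guide (dashed line). The bar from -350 to -300 reaches 55.1 LIs, the bar to its left 14.8 LIs, and the last bar at the right end 6 LIs.

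Mouse-matched LIs were for the most part copies of DNA close to the cut. Of the 29, 19 (65.5%) matched a single place within 5000 bases of the cut, 6 a single place elsewhere and 4 several places equally well. The 19 local LIs comprised 7 of 10 at S1, 3 of 4 at S7, 4 of 5 at S18 and 5 of 10 at S28. They copied 15 distinct stretches. The copied stretch lay to the right of the cut on the plus strand in 12 LIs, to the left in 6 and across the cut in 1. The nearest lay 9 bases from the cut and the farthest 1323 bases, with 9 of the 19 within 100 bases and 18 within 1000 bases. Going by the amplicon size the study gives, most of these stretches lay inside the amplified region. At which step the copies arose, at the break or later, was not tested. In 17 LIs the copy kept the direction of its source, and in 2 it was inverted.

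Local copies are shown as deposited with 20 reference bases on each side of the place of insertion in lower case and the inserted bases in capitals, on the plus strand, since both the source and the junctions can be read from them. The 171-bp LI of S1 replicate 1 was inserted 15 bases left of the cut and copied chr14:21092424-21092594, which starts 23 bases right of the cut and overlaps coding sequence of Adk. The 121-bp LI of S1 replicate 2 stood in 2 molecules at the cut and copied chr14:21091648-21091768, in an intron of Adk at -632 bases from the cut (negative values lie to its left). The 41-bp LI of S7 replicate 2 copied chr8:105663485-105663524, in an intron of Ctcf at -324 bases, plus 1 further base. The 136-bp LI of S18 replicate 2 copied chr16:92825099-92825234 in an intron of Runx1, and the 124-bp LI of S28 replicate 2 copied chr4:139771876-139771999 in an intron of Pax7.
S1, 171 bp: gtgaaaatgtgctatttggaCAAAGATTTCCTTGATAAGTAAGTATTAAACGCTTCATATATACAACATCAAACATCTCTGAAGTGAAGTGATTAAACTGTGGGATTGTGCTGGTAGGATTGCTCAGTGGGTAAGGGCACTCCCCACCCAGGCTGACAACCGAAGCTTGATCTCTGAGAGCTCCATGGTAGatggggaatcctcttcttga
S1, 121 bp: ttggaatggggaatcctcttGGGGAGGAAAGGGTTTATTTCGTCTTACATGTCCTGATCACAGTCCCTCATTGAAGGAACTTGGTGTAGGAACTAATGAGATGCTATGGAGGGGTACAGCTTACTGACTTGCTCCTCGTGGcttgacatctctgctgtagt
S7, 41 bp: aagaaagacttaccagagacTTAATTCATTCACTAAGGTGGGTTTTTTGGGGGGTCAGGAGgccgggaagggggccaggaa
S18, 136 bp: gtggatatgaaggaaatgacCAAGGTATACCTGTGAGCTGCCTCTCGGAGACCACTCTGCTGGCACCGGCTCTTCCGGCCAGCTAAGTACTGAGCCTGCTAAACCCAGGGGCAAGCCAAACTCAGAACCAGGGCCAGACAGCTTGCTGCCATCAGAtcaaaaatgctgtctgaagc
S28, 124 bp: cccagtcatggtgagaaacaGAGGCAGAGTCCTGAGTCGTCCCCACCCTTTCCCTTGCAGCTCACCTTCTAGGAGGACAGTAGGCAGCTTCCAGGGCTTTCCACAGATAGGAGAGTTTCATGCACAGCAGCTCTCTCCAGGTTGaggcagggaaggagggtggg

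The other local copies ranged from 36 to 476 bp. The longest of all, with 476 bp in S1 replicate 1, copied the bases from chr14:21091913 to 21092388 and was inserted 3 bases right of the cut. Its source ended 12 bases left of the cut. An inverted 36-bp LI of the same sample drew 30 bases from a stretch ending at that same base. In S1 replicate 2, a 36-bp LI in 2 molecules copied 32 bases that begin 9 bases right of the cut. At S18 replicate 1, the 299-bp and 201-bp LIs copied stretches that begin 466 and 77 bases right of the cut and overlap untranslated sequence of Runx1. The 181-bp LI of S18 replicate 2 was the only one whose source ran across the cut. It matched the genome over 139 of its 181 bases. At S28, the 270-bp LI of replicate 1 joined 2 stretches from near the cut. A 140-bp LI of replicate 2, in 3 molecules, joined 85 bases from 543 bases right of the cut to bases without a match. At S7 replicate 2, a 39-bp LI copied the most distant stretch, 1323 bases away, and a 47-bp LI held an inverted copy of 39 bases from 460 bases away.

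**Figure D4:**
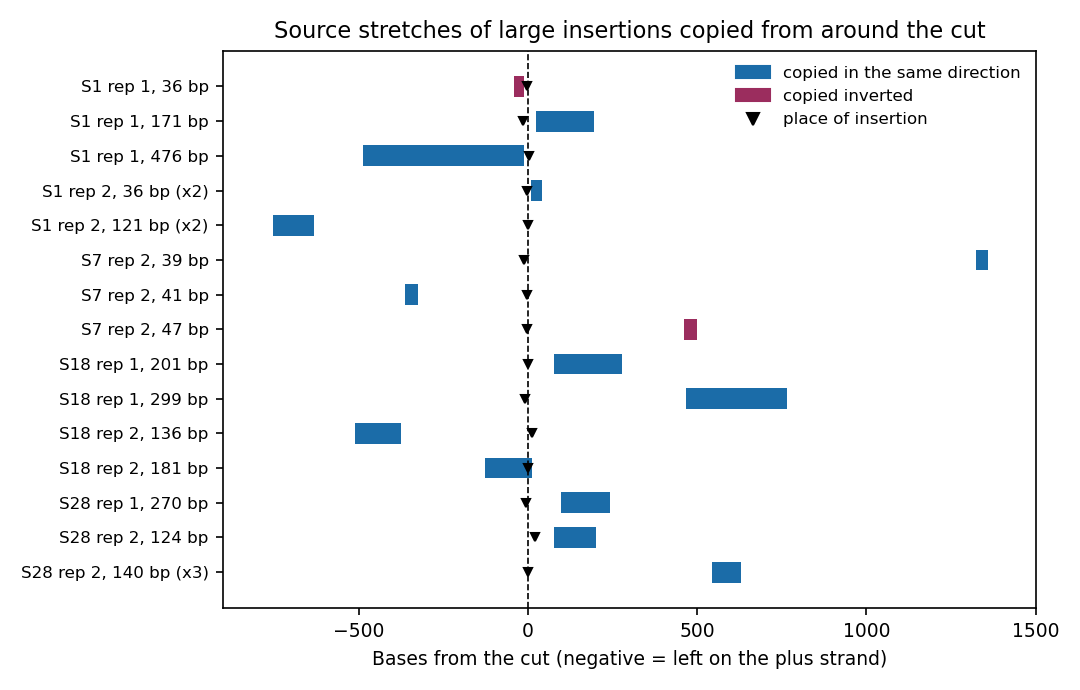
Source of the 15 distinct local copies (bars, in bases from the cut, blue for the same direction and purple for inverted) and the place of insertion (triangles). A number in brackets gives the molecules where there was more than 1, and for the 270-bp LI of S28 only the longer of its 2 source stretches is drawn.

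The other mouse-matched LIs came from other chromosomes or from repeated sequence. Those from a single place elsewhere included a 155-bp LI at S28 replicate 1 copied from chr9:37650064-37650218, which overlaps coding and untranslated sequence of Tbrg1. A 152-bp LI of the same sample came from chr1:165741782-165741933 with no annotated gene, and a 103-bp LI of S1 replicate 1 from an intron of Hdlbp on chromosome 1. The 164-bp LI of S18 replicate 2 came from chr7:73029842-73030003 and the 89-bp LI of S7 replicate 2 from chromosome X, both with no annotated gene. The 152-bp and 164-bp LIs are shown in the same way, as donors on another chromosome than the target, and the first copied the minus strand of its source. The deposited sequence of the LI listed with 164 bp has 163 bases.
S28, 152 bp: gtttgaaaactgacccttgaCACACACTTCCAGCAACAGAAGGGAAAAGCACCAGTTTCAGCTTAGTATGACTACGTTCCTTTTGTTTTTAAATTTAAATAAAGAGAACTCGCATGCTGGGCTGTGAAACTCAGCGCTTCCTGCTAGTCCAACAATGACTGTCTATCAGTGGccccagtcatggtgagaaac
S18, 164 bp: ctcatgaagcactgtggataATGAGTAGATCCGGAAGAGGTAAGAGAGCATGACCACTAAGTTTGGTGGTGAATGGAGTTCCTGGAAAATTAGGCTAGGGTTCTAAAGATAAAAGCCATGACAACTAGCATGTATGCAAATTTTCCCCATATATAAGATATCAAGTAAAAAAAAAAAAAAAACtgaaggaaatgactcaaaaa

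The 6 single places elsewhere include 1 doubtful match. A 58-bp LI of S28 replicate 1 aligned over 31 of its 58 bases to the untranslated region of Gh, the mouse growth hormone gene, at 93.5% identity. The vector of the study ends its expression cassette with the polyadenylation signal of human growth hormone, and whether these bases came from it was not tested. The 4 LIs with several equal places were 38 bp and 111 bp at S1 and 198 bp and 31 bp at S28. The best source of the 111-bp, 198-bp and 31-bp LIs was wholly soft-masked as repeats in the reference, and the 198-bp LI matched over 127 bases only. Over all mouse-matched LIs, 5 of 29 had a source that was more than 50% soft-masked. With at least 80% of the inserted bases required to align, 23 LIs in place of 29 were mouse-matched.

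At the junctions, copies shared 0 to 4 bases with the place where they were inserted. Shared bases could be read for 8 distinct inserts that aligned to a single place from end to end. Of these, 5 shared 2 or more bases at a junction, all 5 of them local copies, and 1 shared none. The only distant copies among the 8 were the 152-bp and 155-bp LIs of S28. At the left junction the source continued with 3 bases identical to the flank for the 121-bp LI of S1, and at the right junction with 4. The 124-bp LI of S28 shared 4 and 2 bases, the 201-bp LI of S18 shared 4 and 1, the 476-bp LI of S1 shared 3 and 1, and the 171-bp LI of S1 shared 2 and 1. The 136-bp LI of S18 and the 152-bp LI of S28 shared 1 base on the left and 0 on the right. The 155-bp LI of S28 from chromosome 9 shared 0 on both sides. No junction shared more than 4 bases. These counts were not compared with what unrelated sequence would give.

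LIs landed at the cut or a few bases from it. The authors set indels lying more than 30 bp from the cut to wild type, so a place near the cut was partly a condition of being listed. Position 0 is the bond cut by Cas9, and negative values lie to its left on the plus strand. Of 161 LIs, 81 (50.3%) lay exactly at the cut and 144 (89.4%) within 5 bases of it, with a range from -16 to 21. The share exactly at the cut was 52.6% ± 5.14 (SD, n = 2) at S1, 54.0% ± 11.1 at S28 and 39.4% ± 20.4 at S18, and 2 of 2 and 2 of 6 LIs at S7. Apart from the cut itself, 53 LIs lay to the left and 27 to the right. All 141 1-bp insertions were placed as far left as the sequence allows, and an LI placed by the same rule would lie left of an equivalent place. The median position was 0 in 6 samples, -1 in S18 replicate 1 and -3 in S7 replicate 2. For this median the sites accounted for 37.5% of the variance (p = 1 by exact permutation, 1 when adjusted). With 6 samples at 0, no arrangement of the samples could bring p below the threshold. This test therefore cannot decide on a difference between sites. Without S7 replicate 1 they accounted for 93.5% (p = 0.143, exact permutation), with S7 left as a lone sample. Of the mouse-matched LIs 10 of 29 were exactly at the cut, and of the vector-linked LIs 66 of 121, a difference that was not tested.

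**Figure D5:**
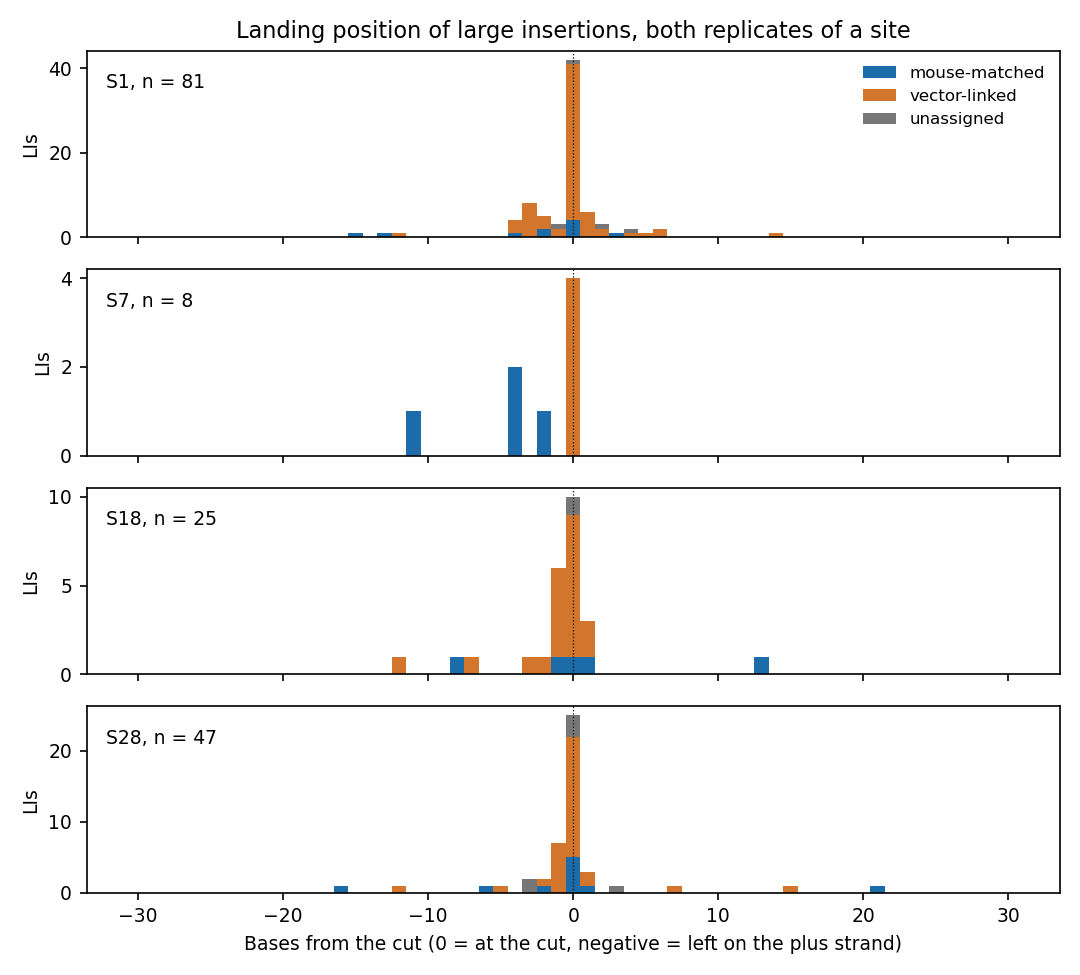
Number of LIs at each distance in bases from the cut, by site with both replicates together and coloured by origin. At every site the tallest bar is at 0, and 144 of the 161 LIs lie within 5 bases of it. Indels lying more than 30 bp from the cut had been set to wild type by the authors.

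The same LI was rarely met again. A type was defined by position, deleted length and inserted sequence. Within a sample, 17 of 161 LIs shared their type with another molecule, against 142 of 181 short insertions and 288 of 931 LDs. Among LIs this was 0% in S1 replicate 1, both S7 samples and both S18 samples, 12.2% in S1 replicate 2, 19% in S28 replicate 1 and 26.9% in S28 replicate 2. By this rule, which a single sequencing error breaks, repeated types were seen in 3 of the 8 samples. With inserts of like sequence counted as 1 type they were seen in 5. The mean was 7.28% ± 10.8 (SD, n = 8) for LIs, 68.3% ± 30.9 (SD, n = 8) for short insertions and 26.3% ± 16.3 (SD, n = 8) for LDs. Each S7 sample held only 2 short insertions, which gave 100% in replicate 1 and 0% in replicate 2. LIs were below short insertions by a mean difference of -61.0 percentage points ± 33.4 (SD, n = 8), lower in 7 samples and equal in S7 replicate 2 (p = 0.0156 by exact two-sided sign flips, 0.0273 adjusted over 7 tests). They were below LDs by a mean of -19 percentage points ± 10.5 (SD, n = 8), lower in 7 samples and equal in S18 replicate 1 (p = 0.0156 by the same exact test, 0.0273 adjusted). How the classes were made tilted both comparisons in advance. Length split LIs from short insertions, of which 141 of 181 were of 1 bp, and LDs outnumbered LIs in every sample. These p-values therefore cannot separate rarer recurrence from the number of possible types and of molecules seen. The 7 tests include the comparisons with the other replicate, where the LI share was 0% in every sample. Counting these made both adjusted values lower than they would be without them.

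No LI type was found in both replicates of a site. The share was 0% in all 8 samples, against 71.6% ± 17.3 (SD, n = 8) of short insertions and 9.30% ± 4.41 (SD, n = 8) of LDs. For short insertions, S7 replicates 1 and 2 gave 100% and 50% from 2 molecules each. With LIs at 0 in every sample, each difference is the share of the other class with its sign turned, so no p is given for it. For recurrence within a sample, 1 value per site leaves 4 values, which allow no p below 0.125, and both comparisons gave that value (exact sign-flip permutation). These shares depend on how many types a class can have and how many molecules were seen. Of the 181 short insertions 141 were of 1 bp, the LDs outnumbered the LIs in every sample, and a partner among the 45 LIs not analysed here would not be counted.

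The repeated LIs formed 8 types, 3 at S1 and 5 at S28. At S1 replicate 2 they were the 36-bp and 121-bp local copies and a vector-linked LI listed with 280 bp in 1 molecule and 282 bp in the other. At S28 replicate 1 they were a 24-bp unassigned LI, the shortest of all and too short for the overlap rule, and a 69-bp vector-linked LI. At S28 replicate 2 they were 2 vector-linked LIs of 61 and 109 bp and the 140-bp local copy, of which 2 molecules had the identical sequence. The 109-bp LI stood in 3 molecules and each of the other types in 2. The UMIs of molecules with the same type differed at 6 to 11 of 12 bases, and those of unlike LIs of a sample at 8 bases in the median. Whether molecules of a type came from separate insertions or from cells with a common edited ancestor was not tested.

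A tolerance for small differences in sequence raised the number of LIs that shared a type from 17 to 41 of 161. When inserts at the same site within 5 bases and with at most 10% edits between their sequences counted as 1 type, an alternative chosen after seeing the data, these fell into 18 types. The share within a sample was then 15.6% in S1 replicate 1, 28.6% in S1 replicate 2, 33.3% in S7 replicate 2, 28.6% in S28 replicate 1 and 38.5% in S28 replicate 2. It was 0% in S7 replicate 1 and both S18 samples, so that S1 replicate 1 and S7 replicate 2 now held repeats as well. Short insertions and LDs kept the exact rule. The 10% limit can also join separate insertions, since 20 pairs of LIs from different sites met it. Whether the added matches came from sequencing differences was not tested. The types included 3 molecules of S1 replicate 1 with 1128 to 1138 bp, a group of 4 of S1 replicate 2 with 48 to 51 bp, and the third molecule of the 140-bp LI of S28. In 2 types both replicates took part, a 72-bp vector-linked LI at S1 and a vector-linked LI of 43 or 44 bp at S18. The lowest UMI difference within such a type was 3 bases, for the 100-bp pair of S28 replicate 1 and for 2 molecules of the 140-bp LI. A difference of 3 or fewer was met in 0.641% of 2340 pairs of unlike LIs. LIs stayed below short insertions by -50.2 percentage points (exact sign-flip permutation test, p = 0.0312) and below LDs by -8.19 percentage points (p = 0.0469, same exact test), both unadjusted. With types set by position and lengths alone, the difference from LDs was -11.4 percentage points (exact permutation, unadjusted p = 0.0469). The limits given for the exact rule hold for these p-values too.

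Alike inserts were also found at different sites. Between sites, 20 pairs of LIs had insert sequences within 10% edits of each other in one direction or the other. These pairs held 23 LIs, all 23 vector-linked, and 17 of them were shorter than 70 bp. In 6 pairs the inserts ran in opposite directions. A 289-bp LI of S18 replicate 1 and a 293-bp LI of S28 replicate 1 were such a pair in the same direction.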

How the data were processed

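For IDM-seq, per the study's methods, the authors kept Nanopore reads with a quality of at least 10 that held both primers, called variants per UMI with VAULT (aligner and build of this step not given in the sources used here), set indels lying more than 30 bp from the cut to wild type and removed indels seen in unedited libraries. They deposited a list of indels per UMI with positions and lengths in bp (other units than counts) and counts of UMI types (3745 to 10848 per sample) and indels. The list had 55 empty lines. A UMI with several lines counted once, by its first LI line. No sample column was left unused (0). The listed length and the deposited sequence were equal in 144 of 205 LI lines and within 5 bases in 198, with gaps of up to 314 bases, and lengths given here are the listed ones.

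The cut was placed by matching deleted sequences to GRCm38 and finding the PAM. All 141 1-bp insertion lines had another base to the left of their listed position, so insertions were read as left-aligned and before that position. Inserts were aligned to GRCm38 with BLAST+ 2.17.0 (blastn, word size 11, e-value 0.001) and to each other (e-value 1e-05, at least 30 bases at 90% identity). Places scoring at least 95% of the best counted as equal. Genes are from GENCODE vM21. The match was tested on simulated mouse and random stretches. Shares were compared between sites by exact permutation over pairs of samples and within samples by exact sign flips, with Benjamini-Hochberg adjustment over 7 tests and a threshold of 0.05. The length difference and recurrence in the other replicate were among the 7 but are given as descriptions. The latter lowered the adjusted values of recurrence within a sample. The test of the median position, also among the 7, could not reach the threshold. Of 9 planned tests, 2 on deleted bases could not be made. Named LIs are every repeated type and, per site, the longest, the shortest and up to 3 mouse-matched LIs with the longest match, beside further mouse-matched and repeated LIs chosen after their values were seen. The members, rules and lists were chosen with earlier results of these data known. Alternatives were leaving out each sample, a 50-bp minimum, a replicate block, distinct types, 1 value per site, types by position and length, and other match rules. Like inserts as 1 type, bounds for LIs without a sequence, and vector-linked LIs alone as the class without a match were added after seeing the data.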

Additional observations from a re-analysis of the deposited data

Results flagged for a closer look

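The gap between LIs and LDs in recurrence across replicates differed between sites (exact permutation test, p = 0.0381). Both replicates of a site get this value from the same shared LD types, so the 2 values of a site are not independent and the p is no test between independent samples. Since no LI type recurred in the other replicate, the gap equals the LD share with a minus sign, -12.0 and -11.6 percentage points in S1 replicates 1 and 2, -6.45 and -2.48 in S7, -5.45 and -8.33 in S18, and -12.0 and -16.0 in S28. The difference is thus one among LDs.

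The list also held 4 molecules called as inversions, which belong to neither class. They were 338 bp in S1 replicate 1, 362 bp and 282 bp in S7 replicates 1 and 2, and 847 bp in S28 replicate 2. Each of these samples held only 1, and no unedited library was analysed here beside them.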

How the results depend on the processing

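Among 86 values from alternatives, 80 left the call as it was, 0 reversed, 4 lost it and 2 gained one. The 86 include alternatives of recurrence in the other replicate and of the length difference. Both are given here as descriptions, so part of the 80 are no calls of a test. The same holds for values of the median position that could not reach the threshold. The 4 were the recurrence comparisons with 1 value per site, whose means were -61.0, -19, -71.6 and -9.30 percentage points and whose exact p of 0.125 was the smallest possible, and in the last pair the LI share was 0 throughout. The 2 were the mouse-matched share between sites without either S7 sample, which leaves S7 with a lone sample assumed to vary like the other sites. Leaving out each sample in turn gave 11.4% to 97.9% of the variance between sites for that share, and 35.2% to 93.5% for the median position, the highest without S7 replicate 1 (exact permutation p = 0.143). Recurrence within a sample then differed by -69.7 to -55.5 percentage points from short insertions and by -21.7 to -16.8 from LDs, and recurrence in the other replicate by -74.7 to -67.6 and by -10.3 to -8.34. The length difference between origins, given as a description, was -57.2 to -2.58 bp. With a replicate block, the exact permutation p was 0.875 for the mouse-matched share (16% of the variance), and that call did not change. For the median position (37.5%) it was 1, and no p below the threshold was possible. The labels do not say that a replicate number marks a shared animal or day. Counting each LI without a sequence as mouse-matched or as not gave 29.9% and 21.3% of the variance, an alternative chosen after seeing the data. The number of LIs limits S7 most, with 8 LIs listed although its samples had the most UMI types (10848 and 8783). At least 10 deleted bases, like any deleted base, gave no value to test.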
